A study of Mus musculus with 48 samples.

Results

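Gene expression in 3T3-L1 cells carrying a control siRNA was compared between day −2 and day 0 of adipocyte differentiation, the interval in which the cells received dexamethasone and isobutylmethylxanthine (IBMX). The members were the 6 control siRNA arrays of these days, 3 at day −2 and 3 at day 0, of 48 arrays in the series, compared over all 24613 probes in pairs that shared a replicate number. 3T3-L1 is an established mouse fibroblast-like line that can turn into fat cells in culture. Cells of every group had been transfected with 50 nM siRNA. The control groups received a pool that targets no gene, and the PPARγ KD groups, used here only for comparison, received a pool against Pparg. By the labels, confluent cells were given IBMX at 0.5 mM with dexamethasone at 0.25 µM for 48 h up to day 0. Insulin at 5 µg/ml and rosiglitazone at 1 µM came only from day 0 on. Media were renewed every 2 days. The labels do not say whether day −2 cells were collected before or after IBMX and dexamethasone were added. The replicates are described as independent biological replicates of a single cell line.

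The working name of this interval was that of control cells reaching confluence, and the protocol went against it: the cells were described as confluent before the drugs were added. On the arrays, glucocorticoid-responsive genes had the highest median change of 17 gene lists described here when all listed genes were counted. The ranking changed with a filter on dim probes. The median was then 2.01 for genes for products of fat cells and 1.57 for glucocorticoid-responsive genes. Of the 25 fat cell products, 11 were above background on no array of either day. The lists were chosen with earlier results of these data known. Because of the protocol, the interval is called day −2 to day 0 in what follows. No array of cells kept to day 0 without the drugs was used here, so the drugs and the time in culture cannot be told apart. Bulk arrays also cannot tell apart fewer cells of a kind and less RNA per cell.

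Dexamethasone is a synthetic glucocorticoid. It binds the glucocorticoid receptor, which moves into the nucleus and raises or lowers the transcription of many genes, chemokine and protease genes among those it is known to lower. IBMX blocks phosphodiesterases and so raises cyclic AMP, which acts through CREB at cyclic AMP response elements. In 3T3-L1 cells these drugs are known to induce the transcription factors C/EBPβ and C/EBPδ, which in turn switch on Pparg, the nuclear receptor that drives the fat cell programme.

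Of the 24613 probes, 2229 (9.06%) passed the test between the days (limma, Bonferroni-adjusted p at or below 0.05), with 988 higher at day 0 and 1241 lower. All of them moved the same way in the 3 pairs, while in 903 of the higher and 1152 of the lower probes the values of the days did not overlap. The test itself picks probes whose pairs agree, and the shares over all 24613 probes were not counted. These counts therefore describe the called probes and are no further evidence for them. More than a 2-fold change was seen in 439 higher and 578 lower probes, and more than an 8-fold change in 28 and 18. Taking the brightest probe of each of 18991 gene symbols, 4.50% were called higher and 5.65% lower. Among the 7986 symbols above background on at least 3 of the 6 arrays these shares were 10.1% and 12.9%, and the median log2 change over them was 0.02. Between 33.4% and 39.0% of probes were above background on each of the 6 arrays. The arrays of replicate 3 stood apart from the others: probes above background differed by a median of 0.225 to 0.251 log2 between replicate 3 and the other replicates of a day, against 0.102 (day −2) and 0.0877 (day 0) between replicates 1 and 2. Without replicate 1, 2 or 3 the number of called probes was 1063, 1166 and 1659.

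**Figure D1:**
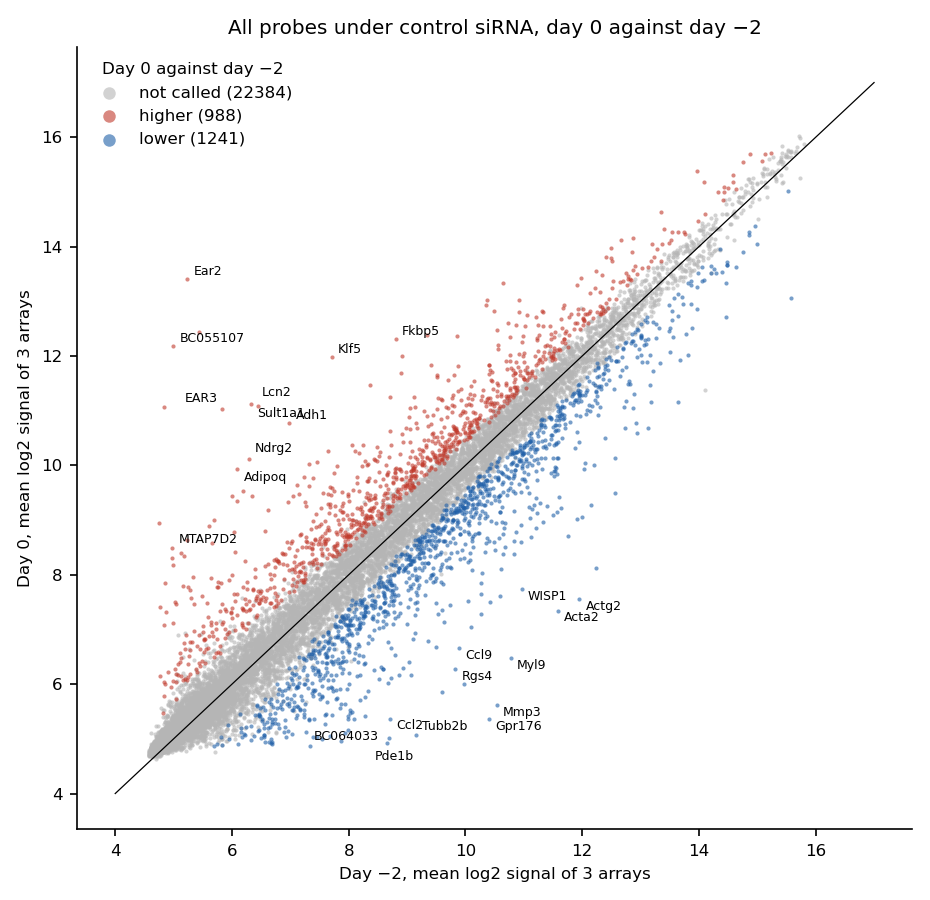
Mean log2 signal of each probe at day −2 (x axis) and at day 0 (y axis) in control siRNA cells, 3 arrays per day, with called probes coloured by direction and the other probes in grey. The 988 probes called higher lie above the diagonal and the 1241 called lower lie below it, with Ear2, Sult1a1, Lcn2 and Klf5 far above and Gpr176, Mmp3 and Actg2 far below.

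The 250 bases before the transcription start are shown for 5 genes described below, chosen among called genes because letters of the cyclic AMP response element or of an E2F site stand in them. The sequences are RefSeq's for GRCm38.p6, 5′ to 3′ on the strand of the gene, with all matched letters of both motifs in capitals. TGACGTCA, the palindromic cyclic AMP response element, stands in Errfi1 and Dusp1, both higher at day 0, and in Mcm5, lower at day 0. Letters of an E2F site, searched as TTTGGCGC, TTTCCCGC, TTTGGCGG and TTTCGCGC on both strands, stand in Mcm5, Cdk1 and Uhrf1, all lower at day 0, and in Dusp1. In Mcm5 a pair of E2F matches on opposite strands overlap.
Errfi1, chr4:150854820-150855069, plus strand: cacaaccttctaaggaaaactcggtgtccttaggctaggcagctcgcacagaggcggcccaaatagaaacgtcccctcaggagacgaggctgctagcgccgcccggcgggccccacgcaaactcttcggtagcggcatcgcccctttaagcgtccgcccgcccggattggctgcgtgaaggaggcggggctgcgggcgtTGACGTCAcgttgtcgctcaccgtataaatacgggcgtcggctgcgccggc
Dusp1, chr17:26508473-26508722, minus strand: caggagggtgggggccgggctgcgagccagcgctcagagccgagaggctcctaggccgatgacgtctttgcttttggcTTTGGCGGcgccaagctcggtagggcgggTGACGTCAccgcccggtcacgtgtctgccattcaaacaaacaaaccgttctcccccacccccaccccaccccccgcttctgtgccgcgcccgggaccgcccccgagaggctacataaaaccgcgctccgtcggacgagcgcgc
Mcm5, chr8:75109259-75109508, plus strand: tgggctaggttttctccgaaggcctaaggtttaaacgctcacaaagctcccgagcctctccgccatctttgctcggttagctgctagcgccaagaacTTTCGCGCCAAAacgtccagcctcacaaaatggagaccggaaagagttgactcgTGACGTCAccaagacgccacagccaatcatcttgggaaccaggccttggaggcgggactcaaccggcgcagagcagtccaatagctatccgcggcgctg
Cdk1 (CDC2A on the array), chr10:69352913-69353162, minus strand: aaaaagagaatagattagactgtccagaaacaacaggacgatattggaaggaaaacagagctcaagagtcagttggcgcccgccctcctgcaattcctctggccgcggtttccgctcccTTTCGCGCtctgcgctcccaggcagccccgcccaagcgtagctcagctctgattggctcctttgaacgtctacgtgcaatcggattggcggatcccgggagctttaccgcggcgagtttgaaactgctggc
Uhrf1, chr17:56304063-56304312, plus strand: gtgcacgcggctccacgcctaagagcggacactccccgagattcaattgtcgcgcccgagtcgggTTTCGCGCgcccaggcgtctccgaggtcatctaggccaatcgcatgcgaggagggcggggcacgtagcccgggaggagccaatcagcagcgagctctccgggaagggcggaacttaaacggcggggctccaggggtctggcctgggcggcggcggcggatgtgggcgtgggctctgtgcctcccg

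TGACGTCA was present in a promoter window (250 bases before to 50 after a start) of 2.03% of all 27025 genes with a window, of 2.79% of those on the array and of 3.83% of those above background. The share was 3.26% (21 of 645) for genes called higher and 2.39% (19 of 794) for genes called lower, both below that of genes above background. E2F letters were present in 2.70% of all genes with a window, in 3.84% of those on the array and in 5.45% of those above background. The share was 3.26% for genes called higher and 6.05% (48 of 794) for genes called lower, the latter near that of genes above background. Of the DNA replication genes with a window, 13 of 29 held E2F letters, 6 of the 10 called lower and 7 of the 19 not called. These shares were not tested, and a match of letters is a description of the window and not of binding.

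Most glucocorticoid-responsive genes rose at day 0: of 23 listed genes, 18 were called higher, 0 lower and 5 not called, with a median log2 change of 1.42 (1.44, 1.53 and 1.28 in the 3 pairs). Fkbp5, which encodes a chaperone of the glucocorticoid receptor, had log2 signals of 8.71, 9.07 and 8.64 at day −2 and of 12.41, 12.35 and 12.18 at day 0. All day 0 arrays lay well above all day −2 arrays, and the change over the 3 pairs was 3.51 ± 0.13 (SE, limma adjusted p = 8.22e-22). This p-value, and the SE of a change here and below, rest on the spread pooled over all 48 arrays and not on the 3 pairs alone. Tsc22d3, whose product GILZ mediates anti-inflammatory effects of glucocorticoids, went from 5.82, 5.79 and 6.96 to 9.21, 9.14 and 10.22, a change of 3.33 ± 0.15 (adjusted p = 8.76e-19). Its replicate 3 was higher than the others on both days, so the pairs moved alike. Sult1a1, a sulfotransferase of phenols, had log2 signals of 6.24, 6.35 and 6.36 and then of 11.19, 11.23 and 10.93, a change of 4.80 ± 0.20 (adjusted p = 1.23e-19).

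Among other members of the list, Pdk4, the kinase that turns off pyruvate dehydrogenase, had log2 signals of 7.63, 7.58 and 7.75 at day −2 and of 10.25, 10.30 and 10.23 at day 0, with no overlap. Angptl4, an inhibitor of lipoprotein lipase, rose by 2.57 and Mt2, a metal-binding protein, by 1.82. Hsd11b1, the reductase that regenerates active glucocorticoid within cells, rose by 1.68. Errfi1, an inhibitor of the EGF receptor, had 10.42, 10.54 and 10.50 at day −2 and 12.80, 12.80 and 12.85 at day 0, a change of 2.33 (adjusted p = 9.52e-14). Dusp1, a phosphatase that turns off MAP kinases, moved from 10.56, 10.35 and 10.31 to 11.90, 11.88 and 11.71, a change of 1.42 (adjusted p = 3.7e-13). The days did not overlap in either gene. Per1, a clock gene, had a change of 1.15, and the call was lost without replicate 1 (adjusted p = 1) and without replicate 2 (0.0727). In Glul, glutamine synthetase, replicate 3 had 6.24 at day 0 against 9.84 and 9.83, and its call was lost without replicate 1 or 2. Genes of the list that were not called included Sgk1, listed as SGK, at 0.08 and Mertk at 0.69. Without replicate 1, 2 or 3 the count of higher genes was 15, 14 and 17.

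Of 20 genes known to respond to cyclic AMP, 5 were called higher and 1 lower, with a median change of 0.07. Of the 20 genes, 8 were not above background on any array of either day. With the filter on dim probes the median was 0.62. SNF1LK (Sik1), a kinase that restrains CREB coactivators, went from 7.51, 7.15 and 8.03 to 9.39, 9.24 and 9.84, which put all day 0 arrays above all day −2 arrays and gave a change of 1.93 ± 0.11 (adjusted p = 5.59e-15). Rgs2, which damps G protein signalling, rose by 1.54, and the phosphodiesterase genes Pde4d and Pde10a, whose products break down cyclic nucleotides, rose by 1.46 and 0.75. Fos fell by 1.25. The calls of Pde10a and Fos were lost without replicate 1 or 2 (adjusted p = 1 in all 4 fits).

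**Figure D2:**
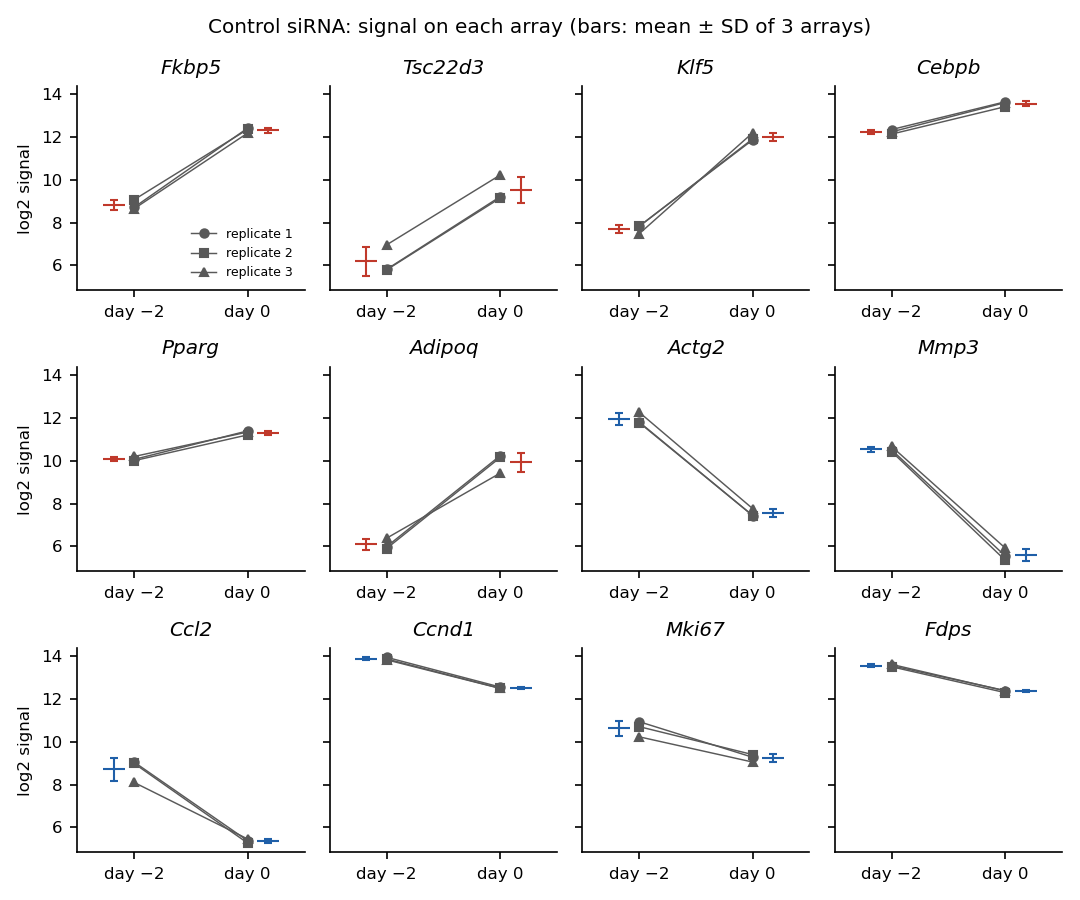
Log2 signal of 12 genes on each control siRNA array, day −2 and day 0 side by side, with 1 point per array, lines joining the arrays that share a replicate number, and bars of the mean ± SD beside the points. The 3 pairs rise together for Fkbp5, Tsc22d3, Klf5, Cebpb, Pparg and Adipoq and fall together for Actg2, Mmp3, Ccl2, Ccnd1, Mki67 and Fdps.

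Of 19 transcription factors that promote fat cell formation, 8 were called higher at day 0, 0 were called lower and 11 were not called. Their median change was 0.62. Without replicate 1, 2 or 3 the count of higher factors was 6, 6 and 9, with 1 lower in the last of these fits. Klf5, a zinc finger factor that acts with C/EBPβ and C/EBPδ upstream of Pparg, changed most: its log2 signals were 7.83, 7.82 and 7.47 at day −2 and 11.86, 11.90 and 12.19 at day 0. This was a change of 4.28 ± 0.12 (adjusted p = 2.66e-25), and no other transcription factor of the list rose by more than 1.42. Cebpb went from 12.34, 12.13 and 12.23 to 13.63, 13.41 and 13.60, a change of 1.31 (adjusted p = 5.48e-15). Cebpd went from 10.51, 10.54 and 10.21 to 11.84, 11.89 and 11.49, a change of 1.32 (adjusted p = 1.33e-11). Neither gene had overlapping days. Pparg had a mean log2 signal of 10.09 ± 0.10 (SD, n = 3) at day −2 and of 11.31 ± 0.10 at day 0, and rose by 1.33, 1.20 and 1.14 in the 3 pairs, a change of 1.23 ± 0.11 (adjusted p = 1.18e-08). Rxra, the partner of PPARγ on DNA, rose by 1.42, and Ebf1, a factor of B cell and fat cell development, by 1.05. Cebpa, the later C/EBP factor that acts with PPARγ, was not called at 0.62 (adjusted p = 0.683).

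Among 18 genes that mark preadipocytes or oppose fat cell formation, 7 were called lower and 1 higher, with a median change of −0.14. The median was −0.70 with the filter on dim probes. Klf2, which represses Pparg, had log2 signals of 10.40, 10.09 and 10.32 at day −2 and of 7.42, 7.03 and 7.37 at day 0. Every day 0 array lay below every day −2 array, and the fall was −2.99 ± 0.13 (adjusted p = 1.82e-19). Gata3 and Gata2, GATA factors that hold cells in the preadipocyte state, fell by 1.46 and 1.29. Foxo1, a forkhead factor restrained by insulin signalling, rose by 1.57. Dlk1, the membrane protein known as Pref-1, had 13.83, 13.93 and 13.96 at day −2 and 13.58, 13.72 and 13.98 at day 0, groups that overlapped, and it was not called. Without replicate 1 or 2 the count of lower genes was 4.

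Of 25 genes for products of fat cells, 12 were called higher and 1 lower, with a median change of 0.77, and the median was 1.68 at day 1 and 2.81 at day 6 relative to day −2. Adipoq, the hormone adiponectin, had log2 signals of 5.99, 5.90 and 6.38 at day −2, all below background, and of 10.23, 10.15 and 9.42 at day 0. This was at least an 11.6-fold rise (adjusted p = 1.07e-14). Cidec, a lipid droplet protein, had 4.89, 4.91 and 5.12 at day −2, below background, and 8.73, 8.37 and 7.80 at day 0, at least 3.73-fold higher (adjusted p = 2.76e-13). Both genes were thus measurable in all 3 day 0 cultures and in no day −2 culture. Pnpla2, the main triglyceride lipase of fat cells, went from 10.01, 9.82 and 9.73 to 12.51, 12.31 and 12.26. Gpd1, which makes the glycerol phosphate of triglycerides, went from 7.02, 7.02 and 6.84 to 9.40, 9.49 and 9.08, a change of 2.36 (adjusted p = 9.49e-15). Acsl1, an acyl-CoA synthetase, rose by 2.32 and Agt, angiotensinogen, by 2.56. Fabp4, not called at 0.22, and the hormones leptin (Lep) and resistin (Retn) were above background on no array of either day. The same held for PLIN (Plin1), although it was among the 12 called higher. Lpl, lipoprotein lipase, rose by 0.92 with its call lost without replicate 2 (adjusted p = 0.159). The count of higher genes was 9, 9 and 12 without replicate 1, 2 or 3.

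Fatty acid and triglyceride synthesis genes moved both ways, with 6 of 28 higher, 3 lower and a median change of 0.10. These counts were 4, 5 and 5 higher and 1, 2 and 2 lower without replicate 1, 2 or 3. Beside them, 10.1% of all gene symbols above background were called higher and 12.9% lower. Pcx, pyruvate carboxylase, rose by 2.20, and the acyltransferases Dgat2 and Dgat1, which add the last fatty acid of a triglyceride, rose by 2.05 and 1.45. Fads2, a desaturase of polyunsaturated fatty acids, fell by 1.55. Scd1, the desaturase that makes oleic acid, was at −0.06 and not called. Of 22 sterol synthesis genes, 12 were called lower, 0 higher and 10 not called, with a median change of −0.67. Insig1, a sterol-sensitive regulator of SREBP, had 7.99, 7.69 and 7.95 at day −2 and 6.57, 6.48 and 6.70 at day 0. Fdps, farnesyl diphosphate synthase, had 13.55, 13.50 and 13.61 and then 12.38, 12.29 and 12.37, a change of −1.20 (adjusted p = 2.88e-10). The days did not overlap in either gene. Cyp51 and Ebp, enzymes late in cholesterol synthesis, fell by 1.01 and 0.98. Without replicate 1, 2 or 3 the count of lower sterol genes was 6, 9 and 8.

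**Figure D3:**
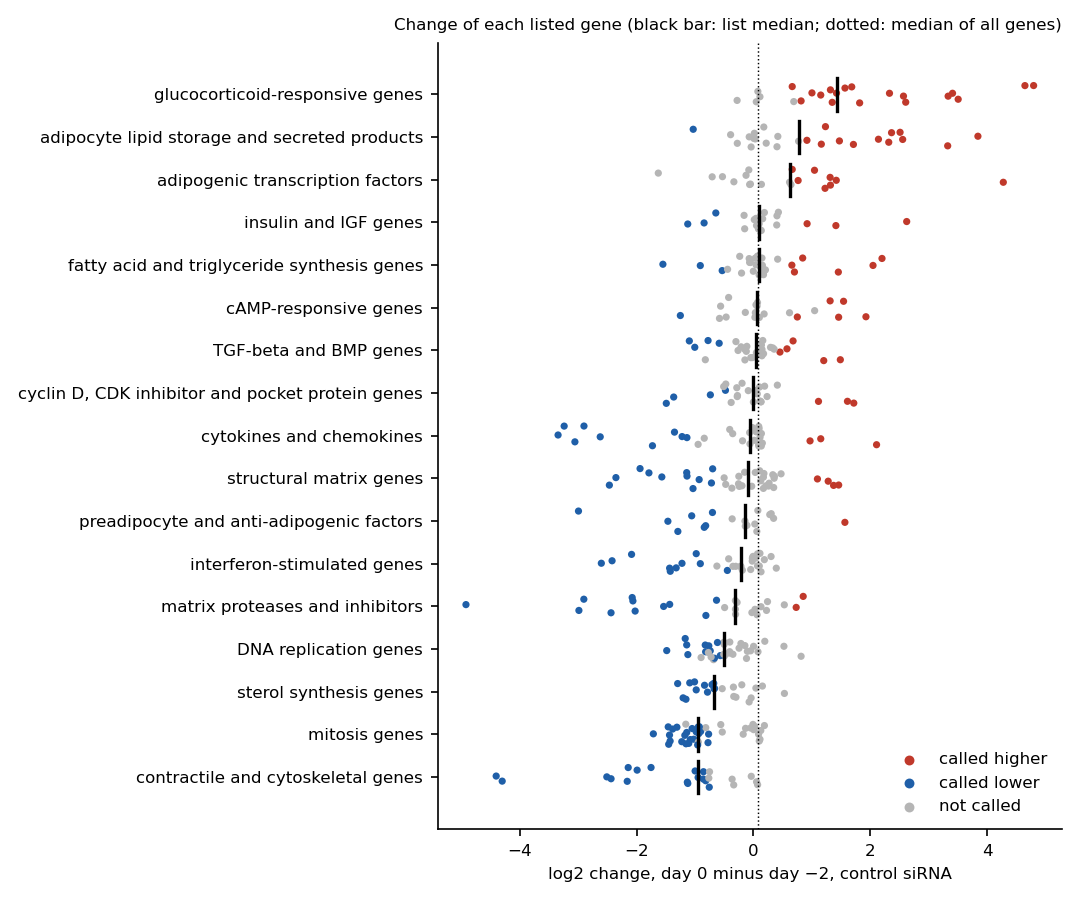
Log2 change from day −2 to day 0 of each gene in 17 lists, with 1 point per gene, coloured where called, a black bar at the median of each list and a dotted line at the median of all genes. The medians run from 1.42 for glucocorticoid-responsive genes to −0.95 for contractile genes, and lists with a median near 0 hold called genes in both directions.

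Of 23 contractile and cytoskeletal genes, 16 were called lower, 0 higher and 7 not called, with a median change of −0.95. Actg2, a smooth muscle actin, had log2 signals of 11.81, 11.78 and 12.26 at day −2 and of 7.44, 7.44 and 7.76 at day 0. The groups were more than 4 log2 units apart, with a change of −4.40 ± 0.11 (adjusted p = 3.85e-27). Myl9, a myosin light chain, went from 10.83, 10.71 and 10.79 to 6.22, 6.81 and 6.39, a change of −4.30 ± 0.13, and its other probe had −3.96. Acta2, the smooth muscle actin that marks myofibroblasts, had changes of −4.24, −4.11 and −2.51 by its 3 probes, the brightest of them the least. The tropomyosins Tpm1 and Tpm2, which lie along actin filaments, fell by 2.44 and 1.99, and Cnn2, a calponin, by 2.14. Acta1, the skeletal muscle actin, fell from 7.99, 7.80 and 8.03 to below background on all day 0 arrays, and 5 of 7 skeletal muscle markers were not above background on any array. Vim, the intermediate filament vimentin, was at 0.05 and not called. Without replicate 1, 2 or 3 the count of lower genes was 10, 13 and 14.

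Matrix genes moved in both directions, with 4 of 38 higher, 11 lower and a median change of −0.09. The count of lower genes was 6, 6 and 8 without replicate 1, 2 or 3. Over all gene symbols above background, 10.1% were called higher and 12.9% lower. Col1a1, the main chain of type I collagen, had 13.60, 13.57 and 14.26 at day −2 and 11.71, 11.75 and 12.61 at day 0, a change of −1.79 (adjusted p = 3.19e-15). Thbs2, an antiangiogenic matricellular protein, had 12.95, 12.97 and 12.92 and then 10.63, 10.66 and 10.49, a change of −2.35 (adjusted p = 1e-23). Neither gene had overlapping days. The basement membrane collagen gene Col4a1 went the other way, from 12.90, 12.89 and 12.83 to 14.21, 14.13 and 14.12, and Mgp, an inhibitor of calcification, rose by 1.46.

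Of 25 matrix protease and inhibitor genes, 11 were called lower and 2 higher, with a median change of −0.31. Leaving out replicate 1, 2 or 3 gave 10, 10 and 11 lower and 1, 1 and 2 higher. Without the replicate block 10 were lower and 0 higher. Mmp3, stromelysin 1, had 10.51, 10.43 and 10.66 at day −2 and 5.56, 5.36 and 5.93 at day 0, where no array was above background. It was at least 16.5-fold lower (adjusted p = 1.52e-27). Mmp9, a gelatinase, fell by 2.90, and the inhibitors Timp3 and Timp1 fell by 2.99 and 2.02. The gelatinase gene Mmp2 was among the 2 that rose, at 0.73. Its call was lost without the replicate block and with the 6 control arrays alone.

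Of 31 cytokine and chemokine genes, 9 were called lower and 3 higher, 15 were not above background on any array, and the median change was −0.06. The median was −1.35 with the filter on dim probes. Leaving out replicate 1, 2 or 3 gave 9, 9 and 10 lower and 2, 2 and 2 higher. Ccl2, which attracts monocytes, had 9.05, 8.99 and 8.10 at day −2 and 5.38, 5.27 and 5.46 at day 0, below background, and was at least 4.68-fold lower (adjusted p = 1.86e-14). Ccl9 and Ccl7, further chemokines of monocytes, fell by 3.24 and 2.90. Spp1, the secreted phosphoprotein osteopontin, went from 12.97, 12.76 and 11.94 to 9.98, 9.86 and 8.66. Saa3, an acute-phase protein, rose from below background to 7.77, 7.76 and 8.08, at least 2.77-fold. Interferon-stimulated genes had 10 of 31 lower and 0 higher, with 14 not above background on any array and a median change of −0.22. With the filter on dim probes that median was −0.94. The count of lower interferon genes was 7, 7 and 9 without replicate 1, 2 or 3. Ifit2, an inhibitor of translation, had 8.86, 8.88 and 8.44 and then 6.17, 6.09 and 6.10, at least 4.71-fold lower, and Ifi27 and Bst2, membrane proteins of the interferon response, fell by 2.42 and 2.09.

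Of 39 genes of mitosis, 23 were called lower, 0 higher and 16 not called, with a median change of −0.94. Mki67, the proliferation antigen Ki-67, had log2 signals of 10.94, 10.70 and 10.23 at day −2 and of 9.27, 9.40 and 9.05 at day 0, a change of −1.38 (adjusted p = 5.75e-10). Kif23, a kinesin of cytokinesis, had 11.92, 11.85 and 10.77 and then 10.17, 10.06 and 9.17, a change of −1.71 (adjusted p = 4.46e-13). In both genes replicate 3 was lowest on both days, and the days did not overlap. CDC2A (Cdk1), the kinase of mitotic entry, fell by 0.94 (adjusted p = 0.000143), a call lost without replicate 1 (adjusted p = 0.574). Of 35 genes of DNA replication, 11 were called lower, 0 higher and 24 not called, with a median change of −0.50. Uhrf1, which maintains DNA methylation behind the fork, had 12.77, 12.69 and 12.15 and then 11.46, 11.56 and 11.17, a change of −1.14 (adjusted p = 3.46e-09), and Tk1, thymidine kinase, fell by 1.48. Mcm5, of the replicative helicase, fell by 0.82, a call lost without replicate 1 (adjusted p = 1) and replicate 2 (0.12). The count of lower mitosis genes was 11, 17 and 22 without replicate 1, 2 or 3, and that of DNA replication genes 4, 7 and 9.

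At day 1, after insulin and rosiglitazone, the medians of both lists were above those of day −2, at 0.52 for mitosis and 0.48 for DNA replication genes. The day 1 and day −2 values are side by side here, and the difference of the lists was not tested. Of 25 cyclin D, CDK inhibitor and pocket protein genes, 3 were higher and 4 lower, with 2 lower when any replicate was left out. For comparison, 10.1% of all gene symbols above background were called higher and 12.9% lower. The sign of the median, near 0, turned under 6 of the alternative settings. Among them were quantile scaling, median scaling and the fits without replicate 2 or without replicate 3. Ccnd1, cyclin D1, had 13.94, 13.86 and 13.82 at day −2 and 12.55, 12.49 and 12.49 at day 0, a change of −1.36 ± 0.07 (adjusted p = 2.46e-17), and its 4 probes lay between −1.51 and −1.36. Ccnd2 fell by 1.49. Gadd45g, a stress-induced brake on growth, rose by 1.72, and Myc rose from below background, at least 2.37-fold.

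Growth factor pathways held genes called in either direction. Over all gene symbols 4.50% were called higher and 5.65% lower, and over those above background 10.1% and 12.9%. No list was tested against these shares. Of 21 insulin and IGF pathway genes, 3 were higher and 3 lower, with a median change of 0.10. Without replicate 1, 2 or 3 the counts were 2, 2 and 3 higher and 1, 2 and 2 lower. Igfbp5, an IGF-binding protein, rose from below background to 7.74, 7.85 and 7.78, at least 2.61-fold, and Igfbp4 rose by 1.41, while Igfbp6 fell by 1.12. Of 30 TGF-β and BMP pathway genes, 5 were higher and 4 lower, with a median change of 0.05 whose sign turned under 2 of the alternative settings. Leaving out replicate 1, 2 or 3 gave 3, 2 and 3 higher and 1, 2 and 3 lower. The receptors Tgfbr3 and Tgfbr2 rose by 1.49 and 1.20, and Grem1, a BMP antagonist, fell by 1.10.

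**Figure D4:**
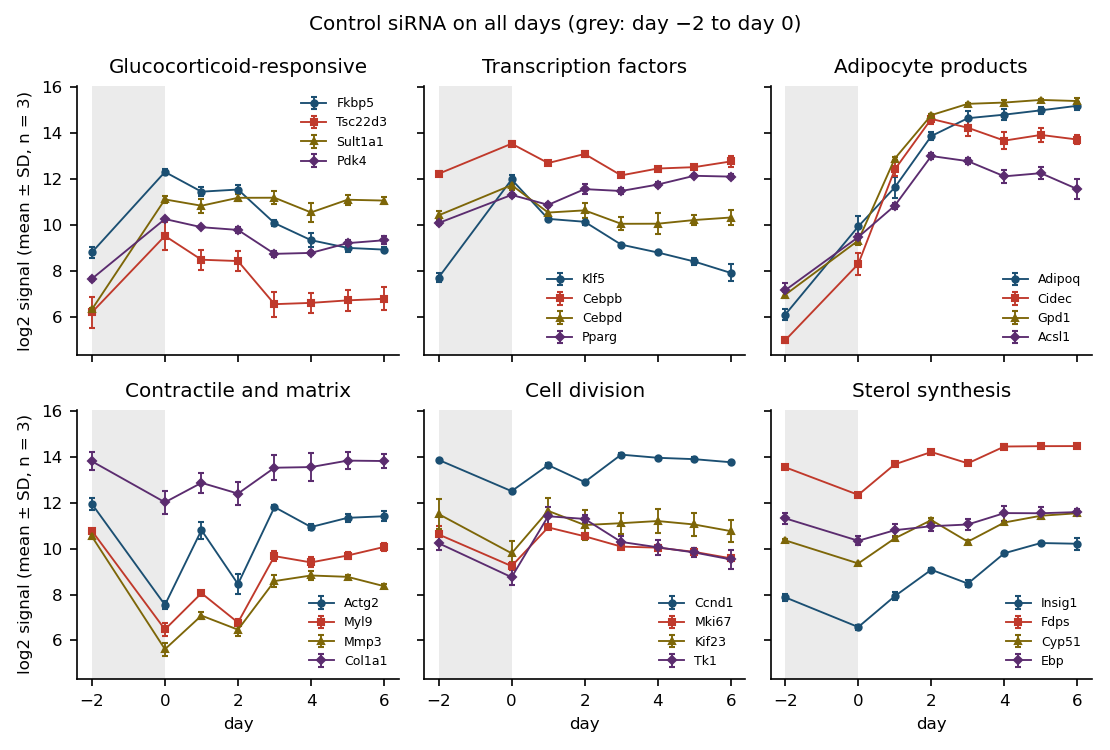
Mean log2 signal of control siRNA cells from day −2 to day 6 for genes of 6 groups, 3 arrays per day, with error bars of 1 SD and the interval from day −2 to day 0 shaded. Fkbp5, Tsc22d3 and Klf5 have their highest mean at day 0 and are lower at day 6, while Adipoq and Gpd1 go on rising to day 6.

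The means of the later days show how long the day 0 levels lasted. Fkbp5 was at 11.45 at day 1 and 8.93 at day 6, and Tsc22d3 at 8.48 and 6.78. Klf5 was at 10.27 at day 1 and 7.91 at day 6, near its day −2 level, whereas Sult1a1 was still at 11.06 at day 6. Adipoq had reached 15.20 and Gpd1 15.41 at day 6. Some genes that fell had a lower mean at day 2 than at days 1 and 3: Actg2 was at 10.81, 8.46 and 11.81 on days 1, 2 and 3 after 7.55 at day 0, Myl9 at 8.06, 6.78 and 9.67 after 6.48, and Ccnd1 at 13.64, 12.91 and 14.10 after 12.51. By the labels media were replaced at 2-day steps, and the part of medium age in the day 0 levels was not tested. Fdps did not follow that course, with 13.68, 14.22 and 13.72 after 12.35. These are levels given with no test.

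The 12 probes that rose most included several genes not yet described. Ear2, an eosinophil-associated ribonuclease, had log2 signals of 4.93, 5.24 and 5.53 at day −2, below background, and of 13.51, 13.58 and 13.14 at day 0, at least 129-fold higher (adjusted p = 1.94e-26). Its family holds near-identical copies, so which member the probes read is uncertain, and the other Ear2 probes had changes of 6.23 and 6.99 and the related probe EAR3 of 5.21. BC055107, a transcript with no further name here, had 4.73, 4.93 and 5.32 and then 12.37, 12.23 and 11.96, at least 55.1-fold higher. Lcn2, the secreted siderophore-binding protein lipocalin 2, had 5.96, 6.60 and 6.75 and then 11.01, 11.04 and 11.22, a change of 4.65 ± 0.14 (adjusted p = 1.49e-24). Adh1, an alcohol dehydrogenase, had 6.90, 6.91 and 7.13 and then 10.68, 10.82 and 10.83. In all of these genes every day 0 array lay above every day −2 array. Ndrg2 and MTAP7D2 (Map7d2) had changes of 3.84 and 3.52.

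Among the 12 probes that fell most, beside the actins, Myl9, Mmp3 and the chemokines, Gpr176, an orphan G protein-coupled receptor, had 10.67, 10.48 and 10.07 at day −2 and 5.20, 5.42 and 5.46 at day 0. It was not above background at day 0 and at least 15.1-fold lower (adjusted p = 3.58e-24). Rgs4, which damps G protein signalling, was at least 10.1-fold lower, Tubb2b, a β-tubulin, at least 6.33-fold, and Pde1b, a calcium-dependent phosphodiesterase, at least 4.52-fold. WISP1 (Ccn4), a matricellular protein, had a change of −3.23.

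Markers of the line and of other cell types were read beside these results. All 10 fibroblast markers were above background on every array, and 6 of them were called lower and 1 higher. Thy1 fell by 1.76 and Ly6a by 1.37 while Pdgfra rose by 1.41, and the mean log2 signal over the list was 12.5 to 13.0 on day −2 arrays and 11.78 to 12.32 on day 0 arrays. Of 8 adipocyte markers, 5 were called higher. PLIN (Plin1), among those 5, was not above background on any array of either day, and neither were Retn, Lep and Fabp4, which were not called. Their mean log2 signal was 5.25 to 5.49 at day −2 and 6.71 to 6.89 at day 0. Of 9 macrophage markers, 7 were not above background on any array, and LYZS and Cd14 were above background at day −2 alone and fell by 2.17 and 1.24. The mean over that list was 5.36 to 5.77 and 4.96 to 5.69, ranges that overlapped. Over the list 2 genes were called lower, 0 higher and 7 not called, with a median change of 0.10. The fall of LYZS and Cd14 stood beside that of the chemokines, and a link between them was not tested. None of 6 epithelial markers was above background on any array, nor were 6 of 7 endothelial markers.

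The same interval was then set beside that in PPARγ KD cells, which shares no array with it. Under PPARγ siRNA 1818 probes (7.39%) were called between the days, 828 higher and 990 lower. Of these, 1344 were called under both siRNAs, which is 60.3% of the control calls and 73.9% of the PPARγ KD calls, and 1341 of the 1344 had the same direction. The targeted gene itself had log2 signals of 7.71, 7.58 and 7.75 at day −2 and of 8.80, 9.11 and 9.46 at day 0 in PPARγ KD cells by its brightest probe, below all control values of Pparg on the same day. Its change of 1.45 was not called different from the 1.23 of control cells (difference −0.22 ± 0.16, adjusted p = 1). Another Pparg probe rose by 1.06 in control cells (limma adjusted p = 0.0317) and was below background on all PPARγ KD arrays of both days. Its change there was 0.36, and the difference of 0.70 ± 0.26 was not called. The remaining Pparg probe was not above background on any array of these days under either siRNA.

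**Figure D5:**
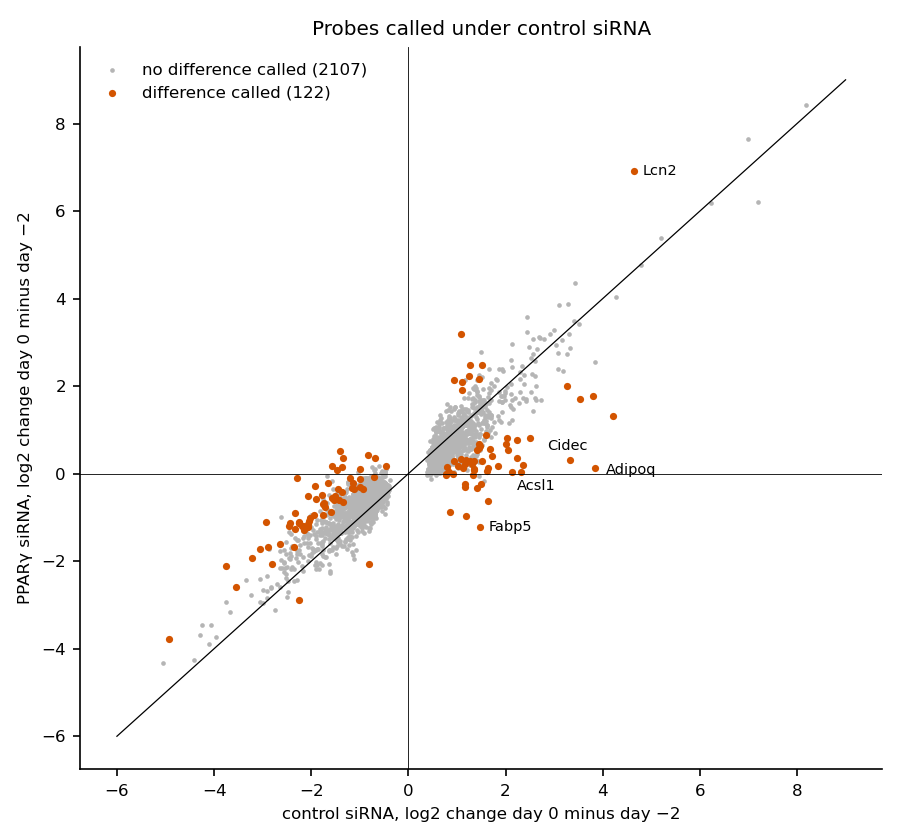
Log2 change from day −2 to day 0 under control siRNA (x axis) and under PPARγ siRNA (y axis) for the 2229 probes called under control siRNA, 3 pairs of arrays each, with the 122 probes whose changes differed in orange and the diagonal drawn. The labels mark 5 of the probes with the largest differences: Adipoq, Cidec, Fabp5 and Acsl1 lie below the diagonal and Lcn2 above it.

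For 163 probes (0.662% of all) the change itself differed between the siRNAs, with 70 more positive in control cells and 93 more negative. Of the 122 that were also called in control cells, 92 had a smaller change of the same sign in PPARγ KD cells, 11 a larger one and 19 the opposite sign. Picking probes by their call in control cells favours smaller changes in PPARγ KD cells, so this split cannot show which siRNA had the larger changes. By the brightest probe, 154 gene symbols (0.811%) differed, and 8 of the 25 fat cell products were among them, as was 1 of the 23 glucocorticoid-responsive genes, Lcn2. Adipoq in PPARγ KD cells had 5.18, 5.03 and 5.98 at day −2 and 5.54, 5.08 and 5.97 at day 0, overlapping values that were all below background. Its change was larger by 3.71 ± 0.32 log2 units in control cells (adjusted p = 1.68e-09). Acsl1 had 6.79, 6.70 and 7.25 and then 6.80, 6.66 and 7.41 in PPARγ KD cells, against a rise from 7.07, 6.88 and 7.51 to 9.34, 9.50 and 9.58 in control cells. Gpd1 and Dgat2 had changes of 0.20 and 0.55 in PPARγ KD cells against 2.36 and 2.05, and both differences were called.

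Lcn2 went further in PPARγ KD cells, from 6.26, 6.01 and 6.42 to 13.11, 13.32 and 12.99, a change of 6.91 against 4.65 in control cells. Cxcl1, a neutrophil chemokine, had 0.37 in PPARγ KD cells and −1.35 in control cells, and Ly6a, a surface antigen of progenitors, had 0.14 and −1.37, both differences called. Ccnd1 had −0.42 against −1.36 and Kif23 −0.77 against −1.71, also called. By the brightest probe, Kif23 was the only 1 of 39 mitosis genes called different. Of 35 DNA replication genes, 0 were. The medians of whole lists in PPARγ KD cells were 1.52 for glucocorticoid-responsive genes, −0.71 for contractile genes and −0.56 for sterol synthesis genes, beside 1.42, −0.95 and −0.67 in control cells. They were 0.13 for fat cell products, −0.33 for mitosis and −0.23 for DNA replication genes, beside 0.77, −0.94 and −0.50. The differences of these medians were not tested.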

How the data were processed

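Total RNA of 3T3-L1 cells was measured on Illumina mouse bead arrays, 48 in all. The deposited table holds linear probe intensity values (average bead signal) that per the file headers came from BeadStudio 3.3.7 without normalization. Its detection values, deposited as a fraction between 0 and 1, are 1 minus the detection p-value. The normexp correction of limma 3.58.1 (R 4.3.3) was run from these p-values with an offset of 16, arrays were scaled on rank-invariant probes, and log2 values were fitted with limma over all 48 arrays, using 1 mean per siRNA and day, blocked by replicate number. p-values were Bonferroni-adjusted over 24613 probes and called at 0.05. A probe with a detection p below 0.01 was above background. Same-numbered arrays of the 2 days deviated together (r = 0.87, 0.85 and 0.947 over 7849 probes), and the block was kept. Replicates 1 and 2 crossed gave 0.783 and 0.844, so the deviations mainly set replicate 3 apart from the others. Where no array of a day was above background, the fold is a bound set at the lowest signal of probes above background. The fit was tested on simulated data, and 3 pairs of arrays limit the precision. In the simulated data 13 of 100 planted changes of 0.5 log2 were called, and 89 of 100 of 1 log2. A gene that was not called may thus have changed by such a size. Levels of different probes were not compared. Genes named were the 12 largest changes each way, the 6 largest differences between siRNAs, Pparg, and members of 17 gene and 6 marker lists (445 list genes on the array, 28 not analysed here), and some genes that this rule names are not reported here. The members and lists were chosen with earlier results of these data known. Each gene was read by its brightest probe, and symbols follow the array, with the RefSeq name in brackets where it differs. Alternatives were other normalizations, offsets, filters, adjustments and sets of arrays.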

Additional observations from a re-analysis of the deposited data

Results flagged for a closer look

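The change from day −2 to day 0 differed between control and PPARγ KD cells, by the test of the difference itself, at 163 probes. Among the largest differences, as control change minus PPARγ KD change in log2 units, were 3.71 for Adipoq, 3.02 for Cidec, 2.69 for Fabp5, 2.27 for Acsl1 and −2.26 for Lcn2. Fabp5, a fatty acid-binding protein, had 7.32, 7.29 and 6.15 at day −2 and 8.89, 8.80 and 7.48 at day 0 in control cells, and 7.34, 7.37 and 6.41 and then 5.94, 5.75 and 5.77 in PPARγ KD cells. Its rise in control cells, 1.47, was not called without replicate 1 (limma adjusted p = 0.153), without replicate 2 (0.0776) or without the replicate block. Without the replicate block the differences of Fabp5 (adjusted p = 1) and Acsl1 (0.0507) were not called.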

How the results depend on the processing

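The counts of called probes moved by less than 1.5 times with quantile scaling (2386), no background correction (2108), an offset of 50 (2214), a filter on dim probes (2286) and the 24 control arrays alone (2161), beside 2229. Without the replicate block that pairs the arrays, 1208 probes were called (516 higher, 692 lower), and 57 differed between siRNAs in place of 163. The 6 arrays alone gave 669 (297 higher, 372 lower), and the 12 arrays of both siRNAs gave 19 for the difference. Benjamini-Hochberg adjustment gave 5441 (2760 higher, 2681 lower) and 782 for the difference. Median scaling gave 1558 in all, 564 of them higher, and 82 for the difference. Leaving out a replicate gave 1063 to 1659 called probes, 459 to 698 higher and 604 to 961 lower, and 33 to 143 for the difference. The share of called probes that were higher, 44.3%, ranged from 36.2% (median scaling) to 50.7% (Benjamini-Hochberg).

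Of 207 called genes of the lists and named probes, 94 were called under every setting run and 113 were lost under at least 1, with no direction reversed. Calls were kept by 140 without the block, 112 with the 6 arrays alone, and 137, 154 and 181 without replicate 1, 2 or 3. Of the genes given with array values, Col1a1, Kif23, Uhrf1, Glul and Fabp5 were not called without the block. Chips could not be used as a block, as no label or header names them.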
